A study of Homo sapiens with 2 samples.

Results

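The genes described here belong to the tumour necrosis factor (TNF) ligand and receptor superfamilies. They are all genes of the array whose name in the files starts with TNFRSF, for a receptor, or TNFSF, for a ligand, control spots left out. This gave 32 genes, 21 receptors and 11 ligands, measured by 40 probes, out of 30238 gene names and 41000 probes. The parent of all lines, A2780, was derived from a human ovarian carcinoma. A2780CBN had been selected in rising doses of carboplatin to 22.2 µM. A2780CBNDXL had been selected in carboplatin and docetaxel together, with 8.02 µM as the dose in the labels. The study gives this label value as the IC50 of the line for carboplatin, with docetaxel at a far lower concentration, and not as its selection dose. Its selection ended at another, lower dose, at which the line was also maintained. Each resistant line was hybridized against A2780CC, cells grown alongside without drug, so that both comparisons have a control of this name, and values of the lines are set side by side below. Whether the RNA of A2780CC was the same for both lines is not stated in the labels, and the methods describe a co-cultured control for each resistant line. The lines were grown in RPMI 1640 medium. RNA from 3 isolations of a line had been combined into 1 sample before labelling, and that sample was measured on 4 arrays.

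Ligands of the TNF superfamily are mostly membrane-bound proteins that act as trimers and bind receptors on neighbouring cells. Some of the receptors carry a death domain in the cytoplasm, through which the adaptor FADD and caspases can be recruited and apoptosis started, while others recruit TRAF proteins and activate NF-kappaB, and decoy receptors bind a ligand without passing on a death signal. A well studied death ligand in tumour cells is TRAIL, the product of TNFSF10, and ovarian carcinoma cells differ widely in their response to it.

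Expression was measured on 2-colour Agilent arrays with probes of 60 bases, on which the resistant line and the control carried different dyes. Arrays 1 and 3 of a line were labelled forward and arrays 2 and 4 in reverse, with arrays 1 and 2 on slide 1 and arrays 3 and 4 on slide 2. Signals are the processed intensities of a channel, in arbitrary units, and a ratio is the log2 of resistant line over control. The 4 arrays repeat 1 sample of RNA, so their SD stands for labelling and hybridization error only, no test across cultures was possible, and the number of arrays limits the precision. Array 1 of A2780CBNDXL stood apart from the rest. The spike-in controls varied by 20.3% in its green and 20.5% in its red channel, against 3.75 to 5.15% on the other arrays, and results that depend on it are given with and without it.

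A gene was tested when its brightest probe was well above background in the same channel on all 4 arrays of a line. It is said to have risen or fallen when, in addition, the mean of its log2 ratios reached 1 or -1, which is 2-fold, with the same sign on all 4 arrays. By this rule 3 of 13 tested members rose and 1 fell in A2780CBN, where 8.01% of all 17949 tested genes rose and 4.57% fell. In A2780CBNDXL 4 of 14 tested members rose and 2 fell, beside 7.72% and 9.23% of 17120 genes. TNFSF10, TNFSF4 and TNFRSF14 rose in A2780CBN, TNFRSF19 fell, and in A2780CBNDXL the same 3 genes and TNFRSF10D rose while TNFRSF19 and TNFRSF12A fell. The median log2 ratio of the tested members was 0.15 in A2780CBN and -0.05 in A2780CBNDXL, beside -0.06 and 0.04 over all tested genes. Several of these genes were bright in the channel of 1 side alone and could be tested only because the sides differed, so counts over the tested members serve as description. In whole cultures, fewer cells with a transcript and less of it per cell cannot be told apart.

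Many members were too dim to be measured. Of the members, 40.6% could be tested in A2780CBN and 43.8% in A2780CBNDXL, beside 59.4% and 56.6% of all genes. Neither channel was well above background on any array for 15 of the 32 genes in A2780CBN and 14 in A2780CBNDXL, and both channels were so on all arrays for 10 and 8. At no probe and on no array of either line was a signal well above background for 13 genes. These are the receptors TNFRSF1B, TNFRSF9, TNFRSF10A, TNFRSF11A, TNFRSF13B and TNFRSF17 and the ligands TNFSF8, TNFSF11, TNFSF12, TNFSF13, TNFSF14, TNFSF15 and TNFSF18, many of which are known from immune cells.

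**Figure D1:**
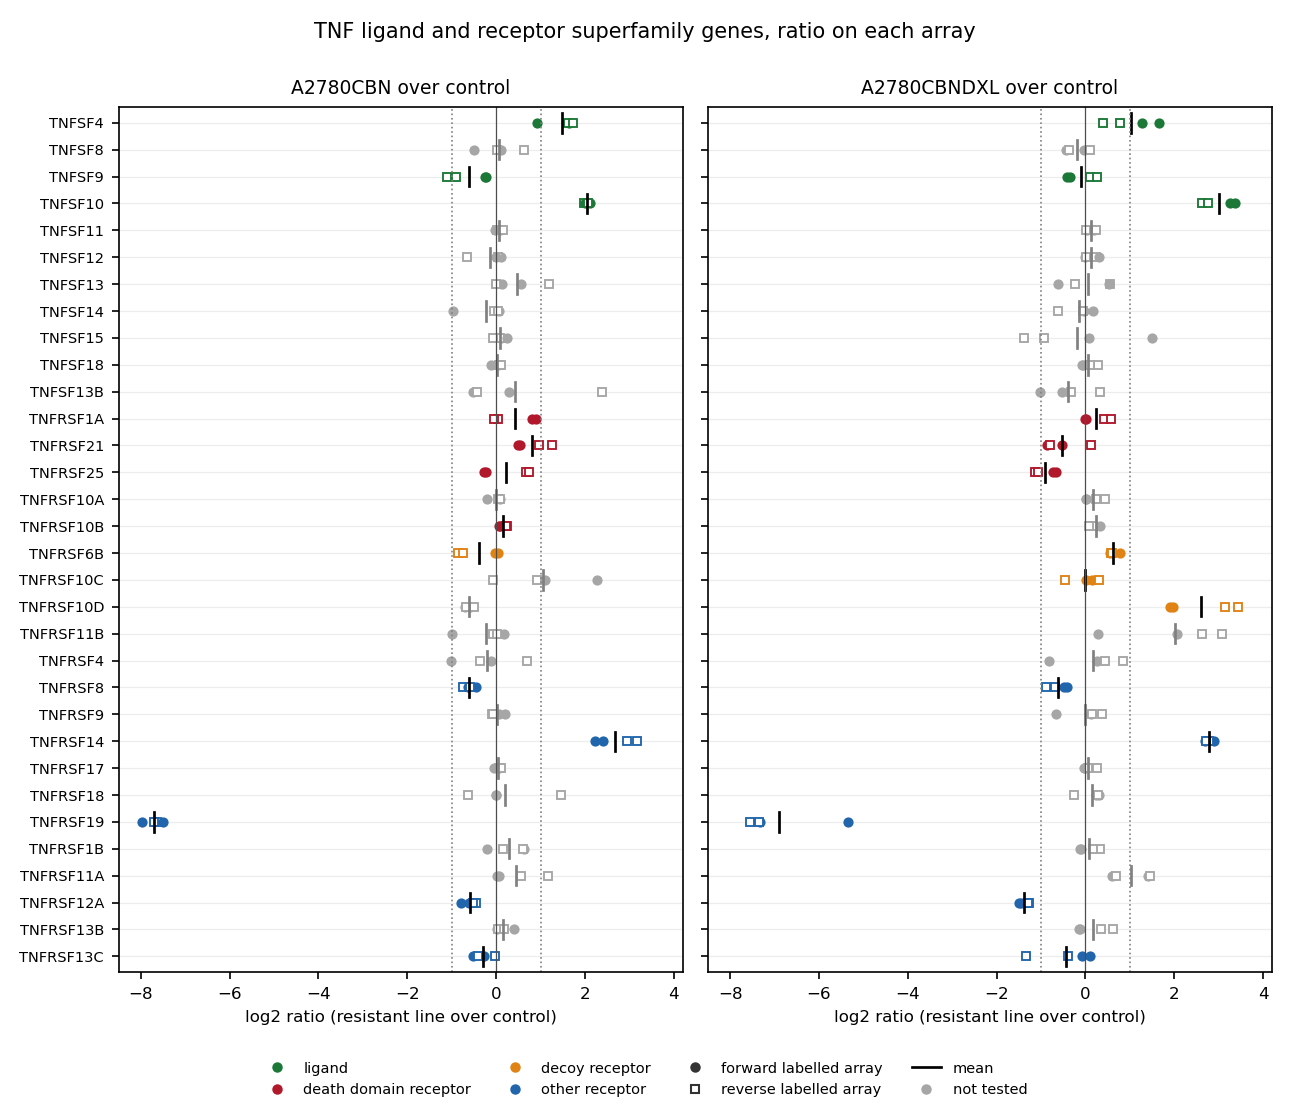
Log2 ratio of resistant line over control for the 32 genes on each of the 4 arrays of A2780CBN (left) and A2780CBNDXL (right), with filled circles for forward and open squares for reverse labelling, a bar for the mean, colours for the roles and grey for genes not tested. Dotted lines mark a log2 ratio of 1 and -1, the 2-fold limit. TNFRSF19 lies far to the left in both panels, with means of -7.71 and -6.89.

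Of the 11 ligands, 3 could be tested in each line, and TNFSF10 and TNFSF4 rose in both. Over all tested genes, 8.01% rose in A2780CBN and 7.72% in A2780CBNDXL. TNFSF10 encodes TRAIL, which binds the death receptors of TNFRSF10A and TNFRSF10B and the decoys of TNFRSF10C and TNFRSF10D. Its probe lies at chr3:173706560-173706619 (NCBI36). In A2780CBN the signal of the line was 46.0, 41.2, 38.7 and 40.1 on arrays 1 to 4, and that of the control was 10.6, 10.4, 9.61 and 9.58. The line was above the control on every array without overlap, but on none of them did the control stand well above background. The ratios were 2.12, 1.99, 2.01 and 2.06, with a mean of 2.05 ± 0.06 (SD of 4 arrays). With the control at its background level this is not a measured fold, and the bound is at least 1.88-fold higher. Such bounds divide the bright channel's mean by that of the dim channel, in which each array enters with the higher of the lowest signal well above background and the probe's own signal, after Aquantile scaling between arrays.

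In A2780CBNDXL the TNFSF10 signal was 288, 259.9, 266 and 191 in the line and 27.9, 42.2, 27.8 and 28.3 in the control. All 4 arrays again had the line far above the control, which here was well above background on 3 of them. The ratios were 3.37, 2.62, 3.25 and 2.75, and their mean of 3.00 ± 0.37 corresponds to 7.99-fold. Background correction by normexp with an offset of 50 added to both channels, followed by loess, gave 0.16 in A2780CBN and 0.79 in A2780CBNDXL, both under the 2-fold limit. An added offset lowers the ratios of dim probes most, but the parts of the correction, the offset and the loess were not tested apart.

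TNFSF4 encodes OX40 ligand, a costimulator of T cells, and its probe lies at chr1:171419802-171419861 (NCBI36). In A2780CBN its signal was 79.1, 66.9, 52.9 and 56.2 in the line and 25.2, 21.8, 28.1 and 17.0 in the control, well above background on 2 arrays. The sides did not overlap, and the ratios of 1.65, 1.62, 0.91 and 1.73 had a mean of 1.48 ± 0.38, which is not read as a measured fold with the control near background. In A2780CBNDXL the signals were 66.6, 52.7, 40.2 and 31.1 in the line and 21.3, 30.7, 16.6 and 23.7 in the control, well above background on 1 array. The line was higher on every array, but by little on array 4, and the ratios of 1.65, 0.78, 1.27 and 0.39 had a mean of 1.02 ± 0.55, just past the limit. Without array 1, which stood apart, the mean was 0.93, and without array 2 it was 0.93 as well, so that TNFSF4 no longer passed. It also missed the limit on slide 2 alone, at 0.83, on the reverse arrays alone, at 0.59, and with background-subtracted signals, at 0.99. Normexp gave 0.20 in A2780CBN and 0.16 in A2780CBNDXL.

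The 250 bases upstream of the start of these ligand genes are shown because they are the ligands that passed the rule in each line. They are taken from RefSeq on GRCh38.p14, in the direction of transcription on the minus strand, on which both genes lie. The TNFSF10 window is chr3:172523431-172523680 and the TNFSF4 window chr1:173205533-173205782. Capitals mark matches to any of 5 motifs searched on both strands, namely the GC box GGGCGG, the TATA box with letters TATAAA, the STAT element TTCNNNGAA, the kappa B consensus and the paired GAAA core of the interferon-stimulated response element.
TNFSF10: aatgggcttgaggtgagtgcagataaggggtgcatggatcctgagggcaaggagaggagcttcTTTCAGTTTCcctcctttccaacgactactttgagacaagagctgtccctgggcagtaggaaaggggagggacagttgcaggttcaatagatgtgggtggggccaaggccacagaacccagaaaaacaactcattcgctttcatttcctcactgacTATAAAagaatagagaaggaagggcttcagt
TNFSF4: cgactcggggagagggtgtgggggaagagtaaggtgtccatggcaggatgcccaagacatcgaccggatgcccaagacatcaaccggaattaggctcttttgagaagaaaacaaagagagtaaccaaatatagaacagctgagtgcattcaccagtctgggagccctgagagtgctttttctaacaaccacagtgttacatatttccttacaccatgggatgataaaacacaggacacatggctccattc
The TNFSF10 window holds TATAAA at 31 to 26 bases before the start and the interferon element core on the other strand at 187 to 178 bases before it. None of the 5 motifs was found in the TNFSF4 window, which says only that these letters are not in it. The GC content was 49.6% for TNFSF10 and 48.0% for TNFSF4, beside a median of 58.0% over all windows of the table. A match describes the letters and was not tested as a site.

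TNFSF9, which encodes the ligand of 4-1BB, was the third ligand bright enough to be tested and did not pass. Its log2 ratio was -0.62 ± 0.45 in A2780CBN, the lowest value among the tested members that did not pass there, and -0.10 ± 0.33 in A2780CBNDXL. In A2780CBN the labelling directions differed, with -0.22 and -0.24 on the forward and -0.89 and -1.11 on the reverse arrays, and on the reverse arrays alone TNFSF9 passed. The other probe of the gene gave -0.73 and -0.11, with the same split in A2780CBN. TNFSF13B, which encodes the B cell factor BAFF, was well above background in the line on 1 array of each comparison, and in the control on 3 arrays of A2780CBNDXL and none of A2780CBN, and was not tested.

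None of the receptors with a death domain and a TNFRSF name rose or fell by the rule. The death receptor FAS, which has another name and rose in both lines, is described further below. There are 5 death domain receptors in the family names used here, of which 4 could be tested in A2780CBN and 3 in A2780CBNDXL. Over all tested genes, 12.6% passed in A2780CBN and 17.0% in A2780CBNDXL. With so few receptors tested, the absence of a call says little about them as a group. TNFRSF10B, the TRAIL receptor DR5, was a bright gene on these arrays. Its signal was 13095, 15207, 11687 and 12919 in A2780CBN, and 12575, 12772, 11019 and 11121 in the control beside it. The ranges of line and control overlap, and the mean ratio was 0.15 ± 0.10. In A2780CBNDXL array 1 was left out for this probe because the spot was marked as an outlier, so the gene was not tested there. On the other 3 arrays the ratios were 0.16, 0.33 and 0.09, with a mean of 0.23 ± 0.12. A dimmer probe with 4 arrays in both lines gave -0.02 ± 0.26 and 0.22 ± 0.08. TNFRSF10A, the TRAIL receptor DR4, was at background everywhere, so no ratio is given for it.

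TNFRSF1A, the main receptor of TNF itself, had its brightest probe at chr12:6308995-6309209 (NCBI36). The mean signal in A2780CBN was 2669.6 in the line and 2015 in the control, and the ratios were 0.89, 0.04, 0.80 and -0.04. The forward arrays were higher and the reverse arrays close to 0, so the mean of 0.42 ± 0.49 is within the spread between labelling directions. In A2780CBNDXL the mean was 0.25 ± 0.29. Its other probe gave 0.29 ± 0.09 in A2780CBN and -0.09 ± 0.20 in A2780CBNDXL.

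TNFRSF21 encodes death receptor 6, and its probe lies at chr6:47307442-47307501 (NCBI36). The ratios in A2780CBN were 0.53, 0.97, 0.50 and 1.26, all above 0, with a mean of 0.81 ± 0.37, which was the highest value among tested members that did not pass in that line. In A2780CBNDXL they were -0.86, 0.12, -0.53 and -0.81, of mixed sign, with a mean of -0.52 ± 0.45. The dimmer probe of the gene gave 1.34 ± 0.71 in A2780CBN, where the line was well above background on 3 arrays and the control on none. As the mean over both probes the gene reached 1.08 and passed, and on the reverse arrays alone it reached 1.12. TNFRSF25, which encodes death receptor 3, had a mean of 0.23 ± 0.56 in A2780CBN and of -0.90 ± 0.24 in A2780CBNDXL, the lowest value among tested members that did not pass in that line. All 4 arrays of A2780CBNDXL were below 0 for TNFRSF25, at -0.66, -1.14, -0.74 and -1.07, and on the reverse arrays alone the gene passed.

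Of the 4 decoy receptors, 1 could be tested in A2780CBN and 3 in A2780CBNDXL. TNFRSF10D encodes DcR2, which binds TRAIL but has a truncated death domain. In A2780CBN it was not well above background in either channel. In A2780CBNDXL its signal was 91.4, 132, 64.4 and 71.0 in the line, and 24.6, 14.9, 16.5 and 6.56 in the control, well above background on no array. The line was the brighter side on all 4 arrays, without overlap. The ratios were 1.89, 3.15, 1.96 and 3.44, lower on the forward than on the reverse arrays, with a mean of 2.61 ± 0.80, and TNFRSF10D rose by at least 3.90-fold. Normexp with the offset of 50 gave 0.36.

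TNFRSF11B encodes osteoprotegerin, a soluble decoy for RANK ligand and TRAIL. In A2780CBNDXL its signal was 13.4, 35.4, 29.9 and 32.0 in the line and 11.0, 4.19, 7.18 and 5.22 in the control. The line was well above background on 3 arrays, all but array 1, and the control on none, so the gene was not tested. The ratios were 0.29, 3.08, 2.06 and 2.62, with a mean of 2.01 ± 1.22 and a bound of at least 1.20-fold higher. Without array 1 the mean was 2.45, and TNFRSF11B passed the rule. In A2780CBN it was not well above background in either channel.

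TNFRSF10C encodes DcR1, a TRAIL decoy without a death domain. In A2780CBNDXL both sides were well above background on all arrays, with mean signals of 71.9 in the line and 69.1 in the control and a log2 ratio of 0.00 ± 0.33. In A2780CBN the line was well above background on 1 array and the control on none, and the ratios ran from -0.07 to 2.27, too far apart for the mean of 1.06 ± 0.96 to be read as a difference. TNFRSF6B encodes DcR3, a soluble decoy for Fas ligand, and had log2 ratios of -0.40 ± 0.48 in A2780CBN and 0.62 ± 0.10 in A2780CBNDXL. The value in A2780CBNDXL, the highest there among tested members that did not pass, was above 0 on each array, from 0.55 to 0.77.

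Among the 12 other receptors, 5 could be tested in each line. TNFRSF14 encodes HVEM, the herpesvirus entry mediator, a receptor for LIGHT and BTLA. On arrays 1 to 4 of A2780CBN its signal was 988, 1410.1, 1313 and 1664 in the line and 187, 182, 281 and 186 in the control. The lowest value of the line was well above the highest of the control. The ratios were 2.40, 2.95, 2.22 and 3.16, with a mean of 2.68 ± 0.45, or 6.43-fold. In A2780CBNDXL the signal was 1216, 2329, 2652 and 2819 in the line and 163, 336, 408 and 427 in the control. Both sides were dimmer on array 1, but the ratios of 2.89, 2.79, 2.70 and 2.72 were close to each other, with a mean of 2.78 ± 0.09, or 6.86-fold. Normexp gave 1.55 and 1.82, past the limit in both lines.

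The only TNFRSF14 probe lies at chr1:2479215-2479274 (NCBI36), and by the coordinates of the files it reads the minus strand. RefSeq places TNFRSF14 on the plus strand, and lists the long non-coding gene TNFRSF14-AS1 overlapping it. Of 27 member probes whose strand could be compared with RefSeq, 26 were on the strand of their gene and this probe was not, beside 99.0% of 19755 probes of all genes. Which transcript gives the signal was not tested, and the values stand for the probe under the name it has in the files. For this reason the window upstream of TNFRSF14 is not shown. It holds 5 overlapping matches to the kappa B consensus, counted over both strands, between 86 and 75 bases before the start, and none of the other motifs.

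TNFRSF19 encodes TROY, a receptor without a death domain that is known from the nervous system, skin and stem cells. Its brightest probe lies at chr13:23147642-23147701 (NCBI36). In A2780CBN the signal of the line was 4.59, 5.18, 4.76 and 4.42, not well above background on any array, while the control was at 1157, 1030.5, 869 and 926. The transcript was measured on every array in the control and on none in the line. The ratios were -7.98, -7.64, -7.51 and -7.71, with a mean of -7.71 ± 0.20, and as a bound TNFRSF19 was at least 43.4-fold lower. In A2780CBNDXL the line was at 22.3, 5.71, 4.79 and 5.34, again not well above background on any array, and the control at 913, 1065, 773 and 866. Here too the sides lay far apart, with the line somewhat brighter on array 1 than on the others. The ratios were -5.36, -7.54, -7.33 and -7.34, with a mean of -6.89 ± 1.03, and the gene was at least 38.9-fold lower. Without array 1 the mean was -7.39. Normexp gave -2.16 and -2.21, in the same direction and past the limit.

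The array holds a further TNFRSF19 probe, annotated in the files to transcript variant 1, which is shown as a second measurement of the gene. Whether the brighter probe reads this transcript as well was not tested. It lies on the plus strand at chr13:23141117-23141176 of NCBI36 and has a GC content of 38.3%.
TNFRSF19 probe, transcript variant 1: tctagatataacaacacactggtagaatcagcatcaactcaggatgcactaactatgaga
This probe was dim. In A2780CBN the line was at 4.91, 5.43, 5.08 and 4.57 and the control at 38.2, 49.5, 31.1 and 44.7, well above background on all 4 arrays in the control only. The mean ratio was -3.01 ± 0.30 and the bound at least 1.86-fold lower, in the direction of the brighter probe. In A2780CBNDXL the control was well above background on 3 of 4 arrays, so the probe was not tested, and its mean was -2.24 ± 0.58 with a bound of at least 1.26-fold lower. Averaged over both probes, the log2 ratio of TNFRSF19 was -5.36 in A2780CBN and -4.56 in A2780CBNDXL.

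RefSeq gives TNFRSF19 a pair of start sites, and the 250 bases upstream of each are shown because the gene had the largest ratio of all members. Both are on the plus strand of GRCh38.p14, start 1 at chr13:23570162-23570411 and start 2 at chr13:23579110-23579359, with capitals as above.
TNFRSF19 start 1: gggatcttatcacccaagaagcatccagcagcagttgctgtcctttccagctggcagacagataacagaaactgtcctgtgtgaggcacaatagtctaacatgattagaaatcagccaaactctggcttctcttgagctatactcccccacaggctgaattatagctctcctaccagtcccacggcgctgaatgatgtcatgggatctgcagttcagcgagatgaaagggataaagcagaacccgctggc
TNFRSF19 start 2: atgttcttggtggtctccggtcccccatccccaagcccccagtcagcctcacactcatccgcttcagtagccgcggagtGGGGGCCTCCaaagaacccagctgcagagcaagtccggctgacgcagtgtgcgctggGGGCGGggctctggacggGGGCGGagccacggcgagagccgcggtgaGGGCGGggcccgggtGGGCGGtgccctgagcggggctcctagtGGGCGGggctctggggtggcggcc
The window of start 2 holds GGGCGG at 5 places, ending 109, 91, 62, 47 and 19 bases before the start, and a match to the kappa B consensus at 171 to 162 bases before it. In the window of start 1 none of the 5 motifs was found. The GC content was 49.6% at start 1 and 72.4% at start 2. Which start was in use in these cells was not tested.

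Over all members, 26 windows of 21 genes were in the promoter table, and for the other 11 genes no window was used. GGGCGG was found in 15 of the 26 windows (57.7%), beside 42.6% of all 35116 windows of the table. TATAAA was found in 4 (15.4%) and in 3763 windows of the whole table, the interferon element core in 4 (15.4%, beside 3.02%), TTCNNNGAA in 2 (7.69%, beside 6.57%) and the kappa B consensus in 7 (26.9%, beside 9.96%). These shares describe the windows and were not tested.

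TNFRSF12A encodes Fn14, the receptor of TWEAK, and was measured well above background in every channel, at a probe at chr16:3012181-3012240 (NCBI36). In A2780CBNDXL its signal was 1514, 1849, 2075 and 1949 in the line and 4295, 4488, 5714 and 4778 in the control. The control was above the line on all arrays without overlap, with ratios of -1.504, -1.28, -1.46 and -1.29 and a mean of -1.38 ± 0.11, or 2.61-fold lower. In A2780CBN the ratios were -0.80, -0.45, -0.60 and -0.52, below 0 on every array, but their mean of -0.59 ± 0.15 did not reach the limit. The control signal of this probe had a mean of 2658 on the arrays of A2780CBN and of 4819 on those of A2780CBNDXL, while the line had 1767 and 1847.

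TNFRSF8, which encodes CD30, had log2 ratios of -0.61 ± 0.12 in A2780CBN and -0.62 ± 0.21 in A2780CBNDXL. TNFRSF13C, the BAFF receptor, had -0.31 ± 0.22 and -0.43 ± 0.64. Neither passed in a line. TNFRSF18 and TNFRSF4, the T cell receptors GITR and OX40, were well above background on 2 arrays or fewer in any channel and were not tested. The ratio of OX40, which binds the product of TNFSF4, is therefore not given.

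**Figure D2:**
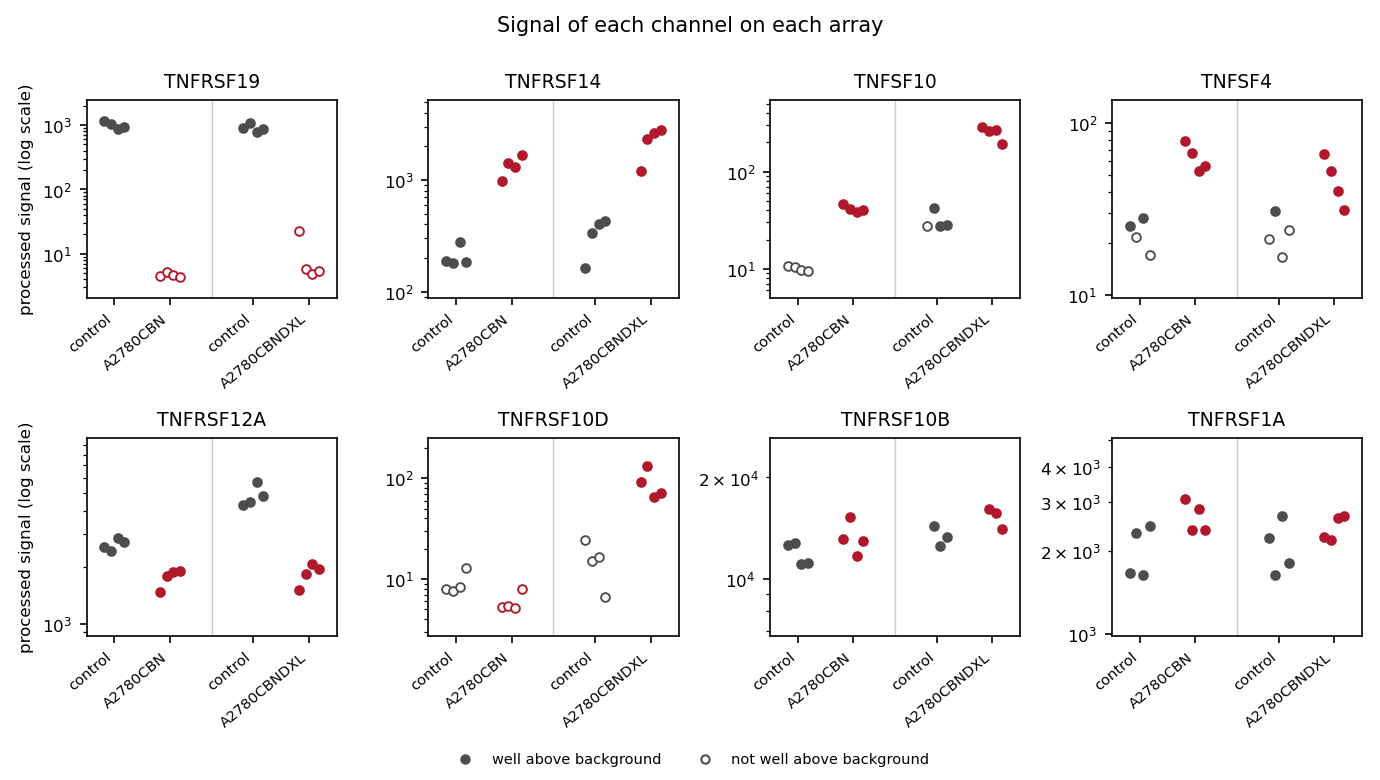
Processed signal of control and resistant line on each of the 4 arrays of A2780CBN and of A2780CBNDXL for 8 genes, on log scales that differ between panels, with filled circles for signals well above background and open circles for the others. TNFRSF19 lies near 1000 in the controls and at background in both lines, TNFRSF10D is measured in A2780CBNDXL alone, and TNFRSF10B and TNFRSF1A overlap between line and control.

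Several members of the superfamilies have names that do not start with TNFRSF or TNFSF. Of 15 such genes on the array, 7 could be tested in each line. In A2780CBN 1 rose and 2 fell, and in A2780CBNDXL 1 rose and 2 fell, with median log2 ratios of the tested genes of -0.08 and -0.59. Of all tested genes, 8.01% rose and 4.57% fell in A2780CBN at a median of -0.06, and 7.72% rose and 9.23% fell in A2780CBNDXL at a median of 0.04. FAS, the death receptor of Fas ligand, was the gene that rose. In A2780CBN its signal was 1201, 926, 845 and 891 in the line and 99.5, 89.3, 74.3 and 83.0 in the control, and in A2780CBNDXL it was 1521, 1427, 1332 and 1025 against 130.1, 148, 116 and 108. The sides were far apart on every array of both comparisons. The mean ratio was 3.48 ± 0.10 in A2780CBN, or 11.1-fold, and 3.40 ± 0.16 in A2780CBNDXL, or 10.5-fold, and normexp gave 1.70 and 2.03. Its probe lies at chr10:90764525-90764584 (NCBI36). FASLG, which encodes Fas ligand, was not well above background at either of its probes.

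NGFR, the p75 neurotrophin receptor, fell in both lines, with a log2 ratio of -1.89 ± 0.56 in A2780CBN and -1.04 ± 0.71 in A2780CBNDXL. The line was well above background on 1 of 4 arrays in each comparison and the control on all. In A2780CBNDXL the mean was -0.89 without array 1, under the limit, and it was -0.90 without array 4 and -0.50 on the reverse arrays alone. CD70, the ligand of CD27, fell in A2780CBN, at -1.20 ± 0.34 and at -0.90 on the reverse arrays alone, and had 0.63 ± 0.06 in A2780CBNDXL. EDA, which encodes ectodysplasin, had 0.49 ± 0.15 in A2780CBN and fell in A2780CBNDXL, at -1.24 ± 0.20. Its other probe was at background, and as the mean over both probes EDA was at 0.12 and -0.78, under the limit. With normexp NGFR was at -0.29 in A2780CBN and -0.13 in A2780CBNDXL and EDA at -0.31 in A2780CBNDXL, under the limit, while CD70 stayed past it at -1.06.

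The adaptors, caspases and inhibitors that act below these receptors could be tested in both lines for all of the 21 genes read here. In A2780CBN 1 rose and none fell, and in A2780CBNDXL 1 rose and 4 fell, with medians of -0.16 and -0.02, beside 8.01% risen and 4.57% fallen of all tested genes in A2780CBN and 7.72% and 9.23% in A2780CBNDXL, at medians of -0.06 and 0.04. FADD, the adaptor of the death receptors, had log2 ratios of -0.16 ± 0.31 and -0.43 ± 0.14, and CASP8, the initiator caspase that it binds, -0.07 ± 0.16 and 0.16 ± 0.27, so neither passed. The other CASP8 probes, both dimmer, differed from it in A2780CBN, with 0.73 ± 0.15 and 0.78 ± 0.30, and gave -0.16 ± 0.30 and -0.23 ± 0.79 in A2780CBNDXL. BIRC3 encodes cIAP2, an inhibitor of apoptosis that binds TRAF proteins, and is a known target of NF-kappaB. In A2780CBN its signal was 251, 205, 220.3 and 293 in the line and 11.4, 16.3, 11.8 and 7.9997 in the control, well above background on no array. In A2780CBNDXL the order was the other way round, with 6.39, 6.31, 4.78 and 5.86 in the line, not well above background, and 32.0, 60.1, 42.8 and 69.8 in the control. BIRC3 thus rose in A2780CBN, with a mean ratio of 4.38 ± 0.64 and a bound of at least 10.6-fold higher, and fell in A2780CBNDXL, at -3.08 ± 0.53 and at least 2.23-fold lower. Normexp gave 0.91 and -0.30.

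TRAF1, an adaptor of TNF receptors, had -0.05 ± 0.20 in A2780CBN and rose in A2780CBNDXL at 1.39 ± 0.19. BID, which carries the signal of caspase-8 to mitochondria, had -0.35 ± 0.37 in A2780CBN and fell in A2780CBNDXL at -2.13 ± 0.17, and its other probe gave -1.96 ± 0.23 there. These genes belong to the apoptosis machinery or its adaptors. TRAF5 had -0.19 ± 0.63 and fell in A2780CBNDXL at -1.23 ± 0.33, with -0.95 on the forward arrays alone, and MAP3K14, the kinase NIK of the alternative NF-kappaB pathway, had 0.84 ± 0.08 and fell at -1.13 ± 0.14. With normexp TRAF1 in A2780CBNDXL was at 0.47 and MAP3K14 at -0.84, under the limit. The probes of CFLAR, the inhibitor of caspase-8, disagreed in A2780CBNDXL, with -0.34 ± 0.05 at the brighter and 1.18 ± 0.46 at the dimmer one.

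Of 20 genes of NF-kappaB and the response to TNF, 16 could be tested in A2780CBN and 17 in A2780CBNDXL. In A2780CBN 2 rose and none fell, with a median of 0.04, where 8.01% of all genes rose and 4.57% fell at a median of -0.06. In A2780CBNDXL 1 rose and 4 fell, with a median of -0.59, where 7.72% of all genes rose and 9.23% fell at a median of 0.04. ICAM1, an adhesion molecule induced by TNF, rose in both lines. In A2780CBN the control was not well above background, and ICAM1 was at least 9.44-fold higher at a mean ratio of 4.37 ± 0.25, and in A2780CBNDXL the mean was 1.93 ± 0.20, or 3.80-fold. Normexp gave 0.80 and 0.60, under the limit.

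RELB, a subunit of NF-kappaB, had 0.60 ± 0.39 in A2780CBN and fell in A2780CBNDXL at -1.42 ± 0.15. NFKB2, its partner in the alternative pathway, passed in A2780CBN at 1.05 ± 0.82, but the forward arrays gave 1.78 and 1.74 and the reverse arrays 0.36 and 0.33, so the value depends on the labelling direction, and in A2780CBNDXL it was -0.23 ± 0.43. SOD2, the mitochondrial superoxide dismutase, TNFAIP8 and CHUK, the kinase IKK alpha, fell in A2780CBNDXL at -1.08 ± 0.23, -1.06 ± 0.22 and -1.02 ± 0.12. In A2780CBN they had -0.20 ± 0.09, 0.16 ± 0.55 and -0.02 ± 0.16. These 3 values of A2780CBNDXL lie near the limit, and with normexp they were -0.88, -0.65 and -0.71. On the forward arrays alone SOD2 and TNFAIP8 were both at -0.88. CHUK was at -0.96 without array 1, -0.99 without array 4, -0.98 on slide 2 alone and -0.96 on the reverse arrays alone, each under the limit. NFKB2 in A2780CBN was at 0.73 with normexp. VCAM1, TNFAIP3 and TNFAIP6 were not well above background in either line, and NFKBIA was measured on 3 arrays of A2780CBN and not tested there.

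**Figure D3:**
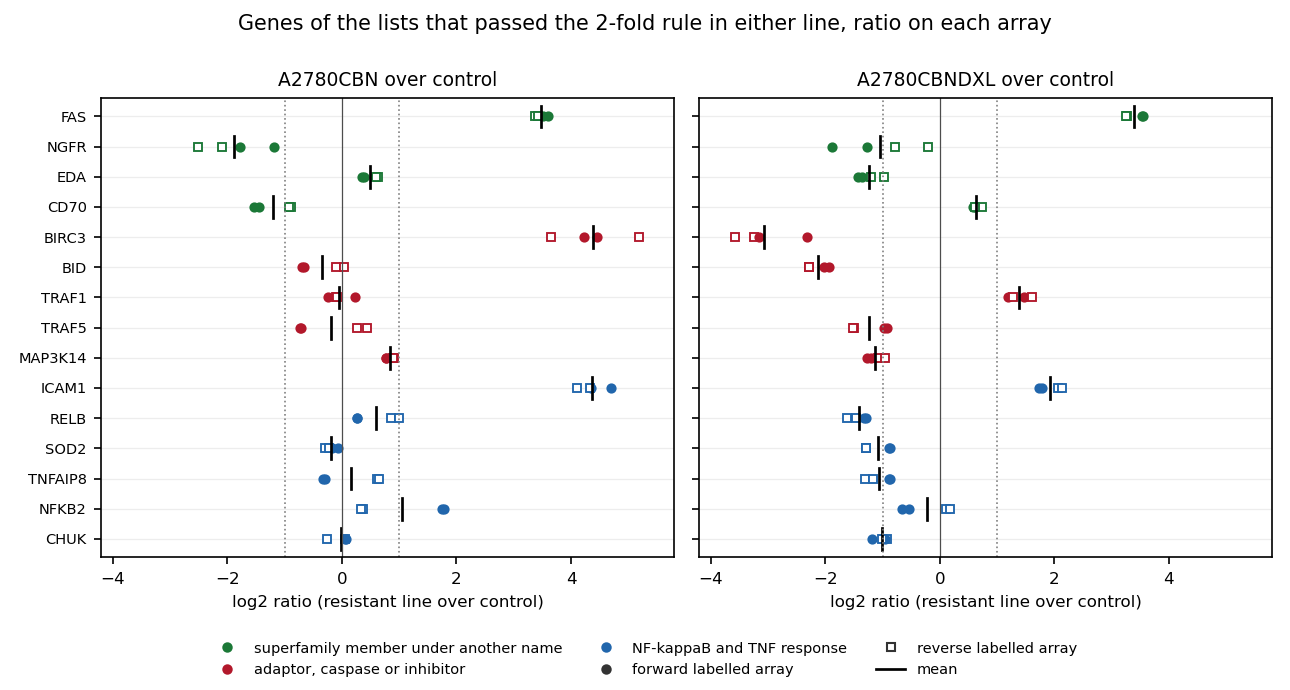
Log2 ratio of resistant line over control on each array for the 15 genes of the 3 lists that passed the 2-fold rule in either line, with filled circles for forward and open squares for reverse labelling and a bar for the mean. FAS lies near 3.4 in both panels, and BIRC3 lies above 3 in A2780CBN and below -2 in A2780CBNDXL.

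Markers of cell types were read beside these results. Of 6 epithelial and ovarian tumour markers on the array, 4 were well above background on all arrays in A2780CBN and 5 in its control, and 4 in A2780CBNDXL and 3 in its control. Their summed signal was 3892 and 2265 in the first comparison and 3858 and 2561 in the second, for line and control. EPCAM rose in both lines, at 2.07 ± 0.30 and 1.67 ± 0.24, and KRT18 rose in A2780CBN, at 1.05 ± 0.16, and had 0.51 ± 0.06 in A2780CBNDXL. KRT8 had -0.37 ± 0.17 and 0.18 ± 0.07, PAX8 had 0.21 ± 0.43 and 0.33 ± 0.40, KRT19 had -0.48 ± 0.51 in A2780CBN and was not tested in A2780CBNDXL, and CDH1 was at background everywhere. Of 8 leukocyte markers, 3 were well above background in A2780CBN and 3 in its control, and 4 in A2780CBNDXL and 4 in its control. The summed signals were 355 and 321 for A2780CBN and its control, and 449 and 375 for A2780CBNDXL and its control. PTPRC, which defines leukocytes, was not well above background at any probe in either line.

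Of 5 fibroblast markers, 4 were well above background on each side of both comparisons, with summed signals of 1731 and 1991 for A2780CBN and its control and of 8329 and 7803 for A2780CBNDXL and its control. In A2780CBN DCN (2.21 ± 0.46), LUM (2.32 ± 0.71) and PDGFRB (2.36 ± 0.12) rose, COL1A2 fell (-5.67 ± 0.15), and COL1A1 had 0.99 ± 0.08. The genes that rose in A2780CBNDXL were DCN (3.62 ± 0.29), LUM (2.51 ± 0.18) and COL1A1 (2.04 ± 0.20), and COL1A2 fell (-2.81 ± 0.07). PDGFRB had -1.52, -2.65, -2.80 and -3.15 there, with a mean of -2.53 ± 0.71, and was not tested because its control was not well above background on array 1, though it was on the other 3 arrays. No endothelial marker of 4 was well above background on all arrays, and PECAM1 was not so on any. The part of such differences in the values of the TNF superfamilies was not tested.

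**Figure D4:**
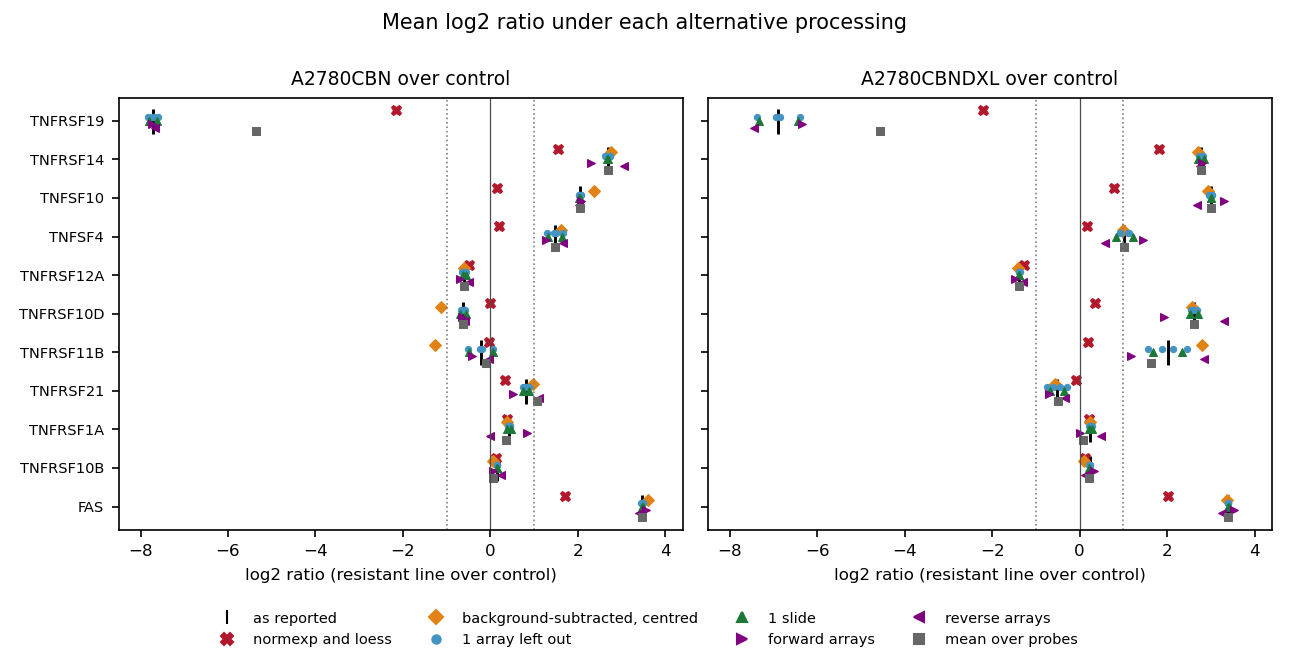
Mean log2 ratio of 10 superfamily members and of FAS under each way of processing the arrays, for A2780CBN (left) and A2780CBNDXL (right), with a bar for the value as reported. The crosses of normexp lie nearest to 0 for the dim genes TNFSF10, TNFSF4 and TNFRSF10D, and TNFRSF14 and FAS lie to the right and TNFRSF19 to the left of the 2-fold lines with every setting that gave a value.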

How the data were processed

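Arrays of A2780CBN and A2780CBNDXL were analysed, and those of A2780DXL were not. The authors deposited output of Agilent Feature Extraction 10.7.1.1 (slide 1) and 10.7.3.1 (slide 2), with NCBI36 probe positions and a processed intensity per channel, background-subtracted and dye-normalized by the authors. The sign of each ratio rests on the dyes that the labels give for the forward arrays. Reverse arrays carry the same dye entries but are named as reverse, and were turned over. After this, forward ratios correlated with reverse ones across probes at 0.581 to 0.739 within a line. Arrays of the same labelling direction correlated more closely, at 0.852 to 0.898.

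Outlier spots were left out and no spot was saturated. A mean ratio was taken for the forward and for the reverse arrays, and the value is the mean of these. The brightest probe represents its gene. Names are as deposited, and of the members 31 matched a RefSeq accession (GRCh38.p14), all 31 with the same current symbol. BIRC4 and TACSTD1 were not found under these names. Named genes are members that passed or had a bound of at least 2-fold, 10 members chosen by role, and up to 8 passing genes per list. All others were named after their values were seen. Of the adaptor list as planned, 1 gene was left out of the list and its counts for a reason that does not depend on its values. The members and lists were chosen with earlier results of these data known.

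Alternatives were normexp background correction (offset 50) with loess, median centring of background-subtracted signals, leaving out each array, 1 slide or labelling direction alone, the mean over probes, other filters on dim probes, limits of 1.5-fold and 3-fold, and a 3-way ANOVA. Its factors were line or control, dye and slide. The methods of the study name a 3-way ANOVA without its factors, so the models may differ. The 2-fold rule and the ANOVA were also run on simulated ratios of tested probes, with every channel set as well above background. The filter on dim probes and the bounds were not tested in this way. Tools were matplotlib 3.10.9, scipy 1.17.1, pandas 2.3.3 and numpy 2.4.6 under Python 3.11.15, and limma 3.58.1 under R 4.3.3.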

Additional observations from a re-analysis of the deposited data

Results flagged for a closer look

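The 47 genes examined were the 32 members and the 15 list genes that passed in either line. For 5 of them that could be tested in both lines, none with a TNFRSF or TNFSF name, all 4 arrays of A2780CBN lay on one side of 0 and all 4 arrays of A2780CBNDXL on the other. The log2 ratios over control in A2780CBN and A2780CBNDXL were 0.49 and -1.24 for EDA, -1.20 and 0.63 for CD70, and 4.38 and -3.08 for BIRC3. They were 0.84 and -1.13 for MAP3K14 and 0.60 and -1.42 for RELB. These list genes were examined because they passed in a line, so the count has no reference share. Each ratio is against the control of its own comparison, and these controls were not alike for every gene. For CD70 the mean control signal was 4269 beside A2780CBN and 11523.5 beside A2780CBNDXL, and for EDA it was 168 and 134. These signals are not scaled between arrays. An opposite sign is thus not read as a difference between the resistant lines alone. Each line is 1 sample, and the difference between the lines was not tested.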

How the results depend on the processing

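Of 316 alternative values of the 29 pairs of a named gene and a line that passed, none changed sign and 36, from 20 pairs, were under 2-fold. A pair passed only with the same sign on all 4 arrays. Leaving out an array, or taking 1 slide or 1 labelling direction alone, could therefore not change its sign. As reported, 3 members rose and 1 fell in A2780CBN, and 4 rose and 2 fell in A2780CBNDXL. With each array left out in turn the counts were 3 to 3 and 1 to 1 in A2780CBN, and 3 to 4 and 2 to 2 in A2780CBNDXL. Without array 1 of A2780CBNDXL TNFRSF11B was gained and TNFSF4 lost. With normexp 1 member rose in A2780CBN and 1 in A2780CBNDXL. In both lines it was TNFRSF14, whose probe lies on the strand opposite to its gene, so the transcript behind this rise is not settled. Background-subtracted signals gave 0 members that fell in A2780CBN and 1 in A2780CBNDXL, since signals of TNFRSF19 at or below 0 have no log, and TNFSF4 was lost from those that rose in A2780CBNDXL. On the reverse arrays alone 2 members fell in A2780CBN, TNFSF9 being the one gained, and the cause was not tested. With both channels required well above background 1 rose and 0 fell in A2780CBN, and 1 rose and 1 fell in A2780CBNDXL, beside 998 and 517 of 16658 genes and 949 and 1019 of 15610 genes, since members dim on one side were no longer tested. The member that rose was again TNFRSF14 in both lines. A 1.5-fold limit gave 4 members that rose and 4 that fell in A2780CBN, and 5 and 4 in A2780CBNDXL, beside 2617 and 2251 of 17949 genes and 2806 and 2907 of 17120 genes. A 3-fold limit gave 2 and 1 in A2780CBN, and 3 and 1 in A2780CBNDXL. The counts of all changed genes, 2259 in A2780CBN and 2902 in A2780CBNDXL as reported, were 608 and 1179 with normexp, 4868 and 5713 at 1.5-fold, 1127 and 1471 at 3-fold, and 2052 and 1917 with the 3-way ANOVA at a false discovery rate of 0.01. That ANOVA has array error alone as its error, and at a rate of 0.05 it gave 2226 and 2671. No paired analysis was possible because each line is 1 sample, the labels share only the number 1, and the counts come from no test. Ratios with a channel near background are limited by signal over background, and where a channel was at background on every array they hold as bounds only.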
